A study of Mus musculus with 6 samples.

Results

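Among 1 kb stretches of the mouse genome, 692 of 108943 had higher DNA methylation in all 3 libraries of Tet2 knockout naive B cells than in any of 3 wild-type libraries. These stretches, called KO-high tiles below, were chosen by the measured methylation itself. The genome was divided into fixed tiles of 1 kb, and a tile was tested when at least 3 cytosines had 10 or more reads in all 6 libraries. The methylation level of a tile in a library is the percent of all its reads that carry C. A tile was KO-high when the lowest KO level was above the highest WT level and the mean KO level exceeded the mean WT level by at least 12 percentage points. The rule called 0.635% of tested tiles. Because the rule used this difference, the levels and differences below describe the chosen tiles and carry no test.

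The libraries were made by enhanced reduced representation bisulfite sequencing (ERRBS), which cuts genomic DNA with a restriction enzyme, treats the fragments with bisulfite and reads the cytosines of CpG dinucleotides. The KO group was labelled with a TET2 knockout and the WT group as wild type. Both consisted of naive B cells from spleens of C57BL/6 mice, with no treatment and no age stated. The labels do not say whether the deletion covers the whole body or only blood cells, nor whether each library came from its own mouse. For the cell type the sample labels and the title say naive B cells, while the design text of the series speaks of germinal centre B cells. The labels decide the naming here.

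TET2 is a dioxygenase that oxidises 5-methylcytosine to 5-hydroxymethylcytosine and further products, a step on the way to unmethylated cytosine. Bisulfite sequencing reads 5-methylcytosine and 5-hydroxymethylcytosine alike as C. In blood cells, loss of TET2 is known above all for added methylation at enhancers, which often lie inside introns or between genes. TET2 is frequently mutated in human blood cancers. Naive B cells are resting lymphocytes that have not met antigen, and after activation they can enter germinal centres or become plasma cells.

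The promoter sequences that follow are shown because a KO-high tile held at least 2 measured cytosines inside the window, or, for Wipf1, because its tile had the largest difference of all. Each runs from 250 bases before to 50 bases after a transcription start, 5′ to 3′ on the gene's strand, as given by RefSeq for GRCm38.p6, and capitals mark every CpG dinucleotide.
Wipf1, chr2:73453840-73454139, minus strand: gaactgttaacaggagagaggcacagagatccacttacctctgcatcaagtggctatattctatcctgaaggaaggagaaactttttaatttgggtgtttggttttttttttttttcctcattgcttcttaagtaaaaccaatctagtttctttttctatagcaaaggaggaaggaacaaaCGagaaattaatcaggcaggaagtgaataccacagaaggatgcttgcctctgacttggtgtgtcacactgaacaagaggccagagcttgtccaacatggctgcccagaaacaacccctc
Cldn4, chr5:134946885-134947184, minus strand: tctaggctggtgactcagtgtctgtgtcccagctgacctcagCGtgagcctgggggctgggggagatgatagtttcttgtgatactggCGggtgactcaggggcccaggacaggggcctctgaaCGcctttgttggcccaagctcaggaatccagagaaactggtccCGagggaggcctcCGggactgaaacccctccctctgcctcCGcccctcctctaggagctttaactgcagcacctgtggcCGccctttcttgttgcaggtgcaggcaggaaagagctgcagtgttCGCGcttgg
Gm32316, chr2:30652442-30652741, minus strand: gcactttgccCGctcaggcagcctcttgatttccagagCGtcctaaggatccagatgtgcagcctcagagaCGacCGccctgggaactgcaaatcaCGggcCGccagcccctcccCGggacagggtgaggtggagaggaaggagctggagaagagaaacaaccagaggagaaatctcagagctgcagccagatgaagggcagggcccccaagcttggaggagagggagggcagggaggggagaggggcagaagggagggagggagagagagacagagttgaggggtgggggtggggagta
Dlg1, chr16:31754100-31754399, plus strand: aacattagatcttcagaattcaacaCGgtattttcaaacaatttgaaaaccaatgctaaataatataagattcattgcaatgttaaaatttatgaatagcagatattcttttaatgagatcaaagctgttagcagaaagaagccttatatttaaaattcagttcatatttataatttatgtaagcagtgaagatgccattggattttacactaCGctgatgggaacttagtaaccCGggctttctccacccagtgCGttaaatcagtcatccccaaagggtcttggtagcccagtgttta
Asic1, chr15:99691974-99692273, plus strand: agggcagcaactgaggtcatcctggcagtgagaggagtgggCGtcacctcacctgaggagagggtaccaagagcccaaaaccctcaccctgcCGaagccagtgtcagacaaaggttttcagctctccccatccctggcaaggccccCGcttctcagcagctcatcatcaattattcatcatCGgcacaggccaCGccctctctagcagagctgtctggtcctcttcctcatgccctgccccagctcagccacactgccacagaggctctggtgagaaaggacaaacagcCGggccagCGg

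In these windows the measured cytosines differed by position. Cldn4 encodes claudin 4, a tight junction protein. Its cytosine 69 bases before the start stood at 37.9%, 27.3% and 14.9% in KO 1 to 3 and at 1.67%, 0% and 15.3% in WT 1 to 3. The KO and WT libraries overlapped there. Its cytosine 82 bases before the start stood at 74.4% ± 13.5 in KO and 50.1% ± 9.09 in WT (SD, n = 3 each), with 38 to 103 reads per library. Dlg1 encodes a PDZ scaffold protein of cell junctions and immune synapses. The cytosine 15 bases before the Dlg1 start stood at 37.9%, 51.2% and 60.2% in KO and at 17.6%, 32.1% and 34.2% in WT, and all KO libraries were above all WT libraries. The cytosine 5 bases after the Dlg1 start was at 65.9% ± 10.6 in KO and 62.2% ± 7.66 in WT (SD, n = 3 each), where the genotypes overlapped. Asic1 encodes an acid-sensing ion channel, and its cytosines 39 and 47 bases after the start stood at 52.0% ± 9.06 and 98.4% ± 2.69 in KO against 30.4% ± 17.1 and 83.1% ± 4.06 in WT (SD, n = 3 each). KO and WT overlapped at position 39, where KO 2 was below WT 2, and the fewest reads behind any of these Asic1 values were 16. Gm32316, a long non-coding RNA gene, had 6 measured cytosines between 240 and 134 bases before its start. The one at 178 bases stood at 50.6%, 48.0% and 53.8% in KO and at 43.4%, 31.3% and 26% in WT. It was the only one of the 6 with all KO libraries above all WT libraries. The one at 153 bases stood at 49.6% ± 3.64 in KO and 47.8% ± 5.46 in WT (SD, n = 3 each).

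Promoter windows were uncommon among the KO-high tiles. In all, 25 RefSeq promoter windows of 24 genes overlapped 23 KO-high tiles, and 8 of these windows contained any of the tiles' measured cytosines, 15 in total. CCGG, the recognition sequence of the enzyme MspI, reads the same on both strands and was present in 15 of the 25 windows, against 52.8% of all 32851 windows of that length. The median window held 6 CpG dinucleotides among the 25 and 7 in the whole table. In the Wipf1 case, the window shown has 1 CpG and no measured cytosine, and the tile's cytosines lie 946 to 1006 bases upstream of that start.

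The labels were checked against the data first. At Tet2, 6 cytosines between positions 133486189 and 133486297 of chromosome 3 passed 10 reads in all WT libraries, at 28 to 71 reads, and in no KO library. None of the 4 tested tiles at Tet2 was KO-high. Each library covered 1551481 to 1626375 cytosines with a median of 92 to 110 reads, and tile levels correlated between libraries with r of 0.990 to 0.995 across tiles. Of 23 marker genes of B, T, myeloid, NK and erythroid cells, 5 had cytosines measured in all libraries within 1 kb of a start. The start of Pax5, the transcription factor that keeps B cell identity, was at 0.527% in KO and 0.201% in WT, and that of Zap70, a T cell kinase, at 95.7% and 95.6%. The neutrophil genes Mpo and Csf3r were at 39.1% and 5% in KO and at 39.3% and 4.42% in WT, and the erythroid factor Klf1 at 0.561% and 0.567%.

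WT 1 stood apart from the other WT libraries in the KO-high tiles. It was the lowest WT library in 481 of the 692 tiles and the highest in 79. The median level over the KO-high tiles was 68.1%, 66.8% and 66.6% in KO 1 to 3, and 44.3%, 50.6% and 52.1% in WT 1 to 3. Averaged over libraries, these medians were 67.1% ± 0.816 in KO and 49.0% ± 4.15 in WT (SD, n = 3 each). Among the other 28816 tested tiles with a mean level of 10 to 90%, the medians averaged 73.9% ± 0.514 in KO and 72.5% ± 0.918 in WT (SD, n = 3 each). WT 1 was the lowest WT library there too, at 71.4% against 73.0% in WT 2 and 73.1% in WT 3. In the KO-high tiles WT 1 had a median of 283 reads per tile, against 365 in WT 2 and 382.5 in WT 3. Without WT 1 the median difference of the 692 tiles was 13.5 points in place of 15.1, and 475 of them still differed by 12 or more. Leaving out WT 1 moved the difference of 58 tiles by more than 1.5 times, and leaving out any other single library moved that of 2 to 12. Applied to the 5 remaining libraries, the rule then gave 634 tiles. Leaving out WT 2 or WT 3 instead gave 1110 or 1131 tiles, and leaving out 1 KO library gave 858 to 944.

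**Figure D1:**
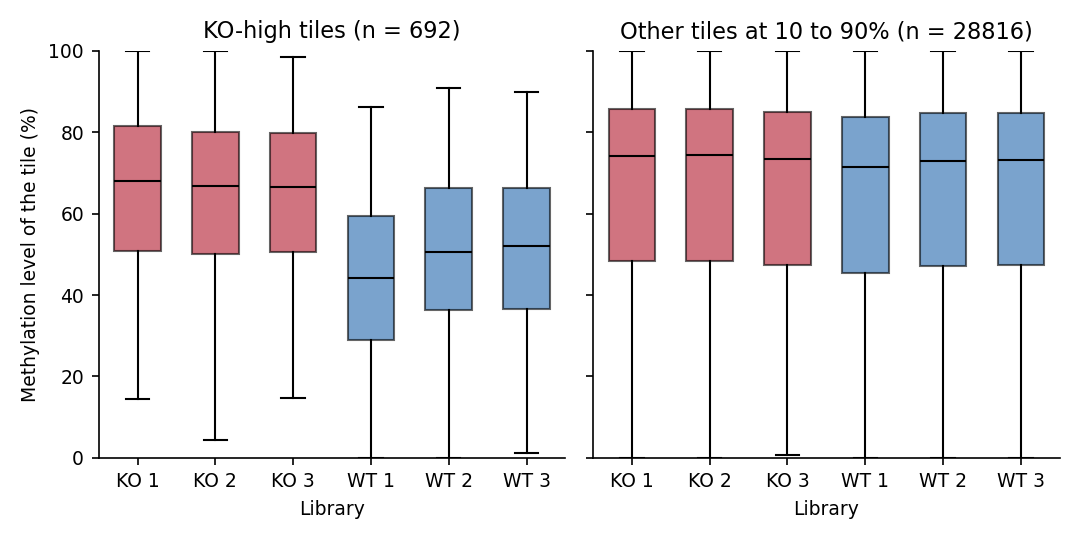
Methylation level per tile (%) by library, for the 692 KO-high tiles on the left and the other 28816 tested tiles at 10 to 90% on the right. Boxes span the quartiles, lines are medians and whiskers reach the lowest and highest tile. In the KO-high tiles the 3 KO medians lie at 66.6 to 68.1% and the WT medians at 44.3 to 52.1%, with WT 1 lowest.

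The opposite pattern was rarer. With KO and WT exchanged, the same rule gave 56 tiles, 0.0514% of those tested. With 1 library left out the exchanged rule gave 109 to 152 tiles. Without WT 1 it gave 119, against 634 higher in KO. All KO libraries were above all WT libraries by any margin in 9092 tiles (8.35%) and below in 3669 (3.37%). At a difference of 20 points or more the counts were 125 tiles higher and 2 lower in KO. At 30 points or more they were 13 and 0. Another 195 tiles had a mean difference of 12 points or more but overlapping libraries, and were left out. Depth differed between the directions. Tiles with a mean of at least 400 reads per library made up 326 of the 692 KO-high tiles but 6 of the 56 in the other direction. Of all 108943 tested tiles, 64946 had that depth. KO-high tiles were 1.04% of tested tiles below 100 reads and 0.268% at 800 or more. For the other direction these shares were 0.366% and 0.00282%. Among tested tiles at 10 to 90%, KO-high tiles were 3.46% at 100 to 200 reads and 1.45% at 800 or more.

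The difference ran from 12 to 39.5 points with a median of 15.1. Between 12 and 14 points there were 249 tiles, and 13 reached 30 points. The gap between the lowest KO and the highest WT library had a median of 6.41 points. Just inside the threshold lay tiles in Camk1, which encodes a calcium/calmodulin-dependent kinase, and in Asic1, and a tile 32.6 kb from Mylip. Without WT 1 the Mylip difference was 8 points. In the Camk1 tile the level was 56% ± 3.03 in KO against 44% ± 6.78 in WT (SD, n = 3 each). Just outside lay tiles near Tmem177 and in Smox and Mab21l4. In the Smox tile, at the gene of a polyamine oxidase, it was 67.9% ± 3.24 in KO against 55.9% ± 5.16 in WT (SD, n = 3 each). Between 11 and 12 points 162 tiles separated the genotypes, and between 12 and 13 points 127 did, so the threshold falls in a dense part of the distribution.

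KO-high tiles were mostly at intermediate levels in WT, a property that the rule used. Mean WT levels lay between 30 and 70% in 464 tiles, between 10 and 30% in 115, between 70 and 90% in 98 and below 10% in 15. No KO-high tile had a WT level of 90% or more, the class with 52095 of all tested tiles. The rule took 5.01% of tested tiles at 30 to 70% in WT and 0.0567% of those below 10%. The tile lowest in WT averaged 1.12%, and the highest KO mean was 96.5%. In 276 tiles (39.9%) the KO libraries had the larger SD, against 50.9% of other tiles at 10 to 90%.

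**Figure D2:**
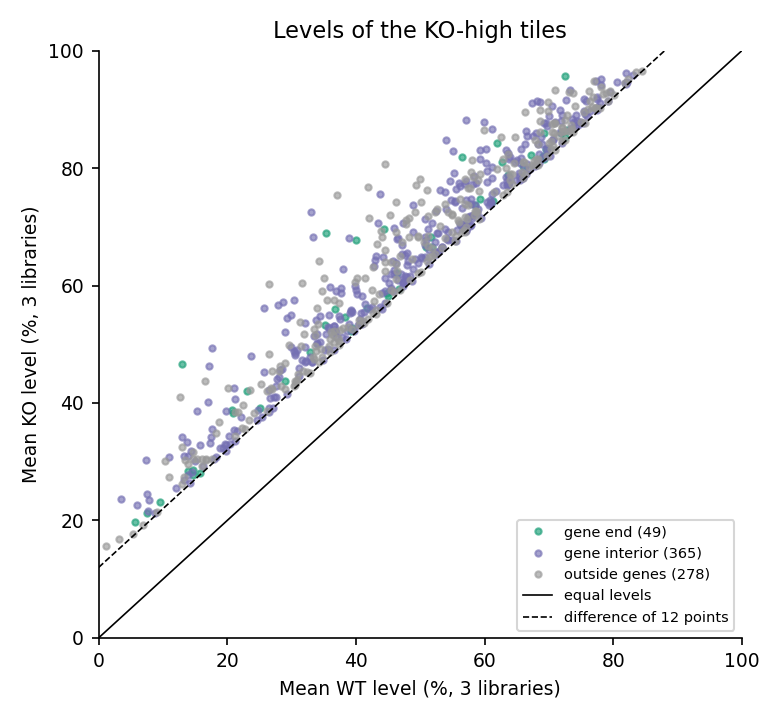
Mean KO level against mean WT level (%, 3 libraries each) for the 692 KO-high tiles, 1 point per tile, coloured by position relative to protein-coding genes. The solid line marks equal levels and the dashed line the 12-point threshold. Most points have WT levels of 30 to 70%, and the 49 tiles at gene ends are spread among the others.

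The largest difference was inside Wipf1 (chromosome 2, 73454001 to 73455000). Wipf1 encodes the WASP-interacting protein, which stabilises WASP and governs actin assembly in lymphocytes. Its 9 cytosines together stood at 77.8%, 70.5% and 69.4% in KO 1 to 3 and 23.1%, 37.5% and 38.6% in WT 1 to 3. Every KO library was at least 30.8 points above every WT library, and WT 1 was the lowest. The level was 72.6% ± 4.57 in KO against 33.1% ± 8.61 in WT (SD, n = 3 each), with 294 to 664 reads per library. All 9 cytosines, within 61 bases on both strands, were higher in KO, by 27.5 to 52.8 points. A further KO-high tile in Wipf1 (chromosome 2, 73509001 to 73510000) was at 39.1%, 49% and 45.3% in KO 1 to 3 and 27.3%, 28.7% and 28.2% in WT 1 to 3. Wipf1 thus held 2 KO-high tiles.

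Il10 encodes interleukin 10, an anti-inflammatory cytokine that regulatory B cells make. A tile 9.07 kb from the gene (chromosome 1, 131010001 to 131011000) stood at 76.8%, 71.8% and 93.7% in KO 1 to 3 and 42.9%, 49.2% and 41.5% in WT 1 to 3. KO 3 was the highest library, and the lowest KO library was 22.7 points above the highest WT library. Its 4 cytosines, all on 1 strand and covered by nearly the same reads, differed by 31.7 to 41.8 points. A tile 57.8 kb from Cryaa, a lens crystallin gene (chromosome 17, 31739001 to 31740000), was at 83.4%, 70.5% and 72.4% in KO 1 to 3 and 24.6%, 44.8% and 41.9% in WT 1 to 3. WT 1 was the lowest library there.

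Creb3l2 encodes a membrane-bound transcription factor of the secretory pathway that plasma cells express. Its interior tile (chromosome 6, 37428001 to 37429000) was at 72.1%, 68% and 64.7% in KO 1 to 3 and 40.1%, 27.7% and 32.3% in WT 1 to 3, and here WT 1 was the highest WT library. Cbfa2t3 encodes a transcriptional corepressor of blood progenitors, and its tile (chromosome 8, 122646001 to 122647000) was at 89%, 85% and 80.2% in KO 1 to 3 and 44.2%, 57.6% and 60.1% in WT 1 to 3. All 8 Cbfa2t3 cytosines were higher in KO, by 5.60 to 44.5 points. Hivep2 encodes a zinc finger protein that binds NF-kB-like sites, and the tile in it (chromosome 10, 14044001 to 14045000) was at 78.7%, 69.9% and 78.2% in KO 1 to 3 and 35.8%, 50.9% and 44.6% in WT 1 to 3. Zbtb44, another zinc finger gene, had a tile (chromosome 9, 31050001 to 31051000) at 91.8%, 85% and 87.9% in KO 1 to 3 and 48.1%, 62% and 61.2% in WT 1 to 3. There 2 of 3 cytosines were higher in KO and the other was 3.59 points lower in the mean, so the tile's difference rested on part of its positions.

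Tiles near Ifitm1 and Ifnar1 were also among the 12 largest. Ifitm1 encodes an interferon-induced membrane protein that restricts virus entry, and a tile 17.9 kb from it (chromosome 7, 140987001 to 140988000) was at 66.7%, 82.4% and 81.5% in KO 1 to 3 and 35.6%, 49.4% and 40.8% in WT 1 to 3. That tile had 3 cytosines and only 34 to 98 reads per library. Ifnar1 encodes a chain of the type I interferon receptor. The tile 26.6 kb from Ifnar1 (chromosome 16, 91458001 to 91459000) was at 61.9%, 64.4% and 54.8% in KO 1 to 3 and 12.9%, 41% and 25.7% in WT 1 to 3. WT spread was wide there, with an SD of 14.1 points, and 11 of 12 cytosines were higher in KO. Among the 11, the cytosine at position 91458345 was higher by only 1.17 points. It and the cytosine at 91458392 stood at 0 to 3.51% in every library. The remaining tile among the 12 largest with an interior position was in Prtg, an immunoglobulin superfamily gene of the embryo (chromosome 9, 72902001 to 72903000), at 40.2%, 51.9% and 55.7% in KO 1 to 3 and 12.6%, 21.4% and 18.9% in WT 1 to 3.

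**Figure D3:**
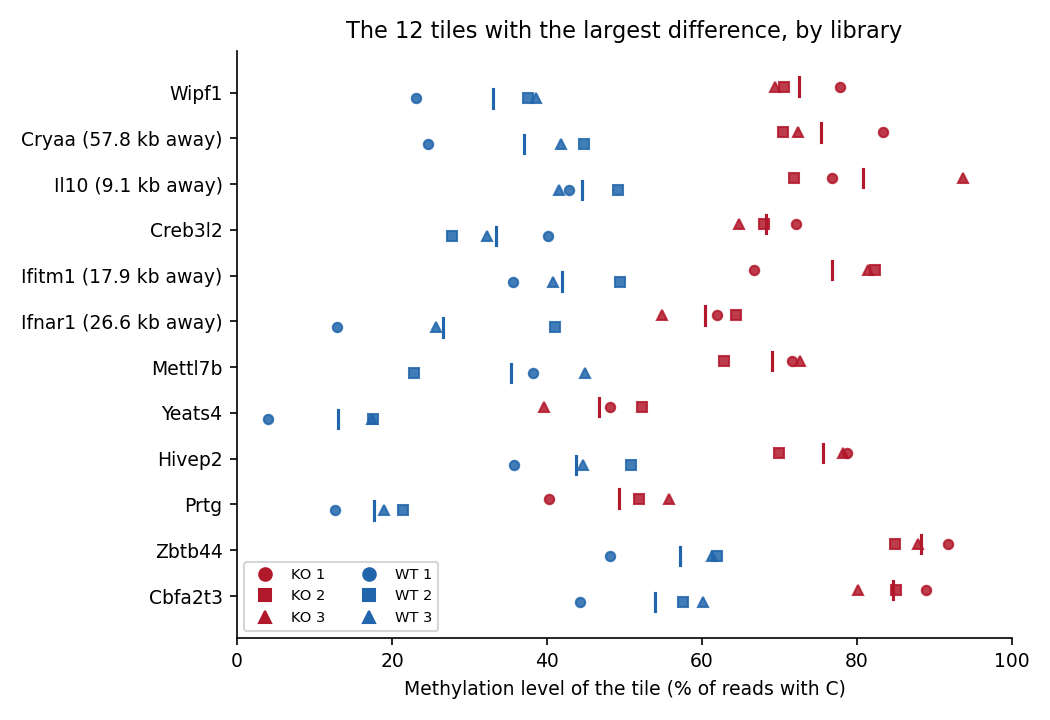
Methylation level (%) of the 12 KO-high tiles with the largest difference, named by the gene they lie in or nearest to. Each symbol is a library, red for KO and blue for WT, and vertical bars are group means. Red and blue do not overlap in any row, as the rule requires, and WT 1 is the lowest symbol in 9 of the 12 rows.

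At gene ends, which here means within 1 kb of either end of a protein-coding gene, 49 KO-high tiles were found. Yeats4 encodes a YEATS domain reader protein of chromatin-modifying complexes. Its tile (chromosome 10, 117215001 to 117216000) had 19 cytosines and stood at 48.1%, 52.2% and 39.7% in KO 1 to 3 and 4%, 17.6% and 17.4% in WT 1 to 3. It was the tile lowest in WT among the 12 largest, at 13% ± 7.81 (SD, n = 3). All 19 cytosines were higher in KO, by 9.49 to 46.0 points. Mettl7b, an alkyl thiol methyltransferase gene, had a tile (chromosome 10, 128960001 to 128961000) at 71.7%, 62.8% and 72.6% in KO 1 to 3 and 38.2%, 22.9% and 44.9% in WT 1 to 3. Its 3 cytosines lie 256 to 286 bases after a RefSeq start, and the tile had 35 to 78 reads per library. The next gene-end tiles were at Mtg2, a GTPase of mitochondrial ribosomes, at Tmprss3, a serine protease, at Gm32742 and at Gm31665, a predicted gene that overlaps Trappc9. Their differences were 27.7, 25.3, 25.3 and 23.2 points. The Mtg2 and Gm31665 tiles had 3 cytosines each, with 31 to 116 and 36 to 152 reads per library. The Gm31665 tile, which also lies inside the vesicle trafficking gene Trappc9, was at 98.6%, 94.7% and 93.7% in KO 1 to 3 and 61.1%, 70.5% and 85.8% in WT 1 to 3.

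Genes were then read by function, with lists of genes for B cell programs. Any protein-coding gene, extended by 1 kb on each side, held a KO-high tile in 407 of 16697 cases with a tested tile (2.44%). Of the germinal centre list, 5 of 19 genes held one, namely Irf8, Rgs16, Ccnd3, Tnfrsf13c and Bach2. Their tiles were 5 of 117 tested in the list (4.27%), against 0.578% of tiles at all protein-coding genes. The number of tested tiles differs between genes, and no enrichment was tested. The lists were chosen with earlier results of these data known, and the tiles at all genes were not matched in WT level. Tnfrsf13c encodes the receptor for the survival factor BAFF, and its tile (chromosome 15, 82223001 to 82224000) was at 79.7%, 72.6% and 78.7% in KO 1 to 3 and 44%, 59.1% and 65.5% in WT 1 to 3. Ccnd3 encodes cyclin D3, a cell cycle driver of germinal centre B cells, with a tile (chromosome 17, 47547001 to 47548000) at 88.9%, 87.5% and 90.7% in KO 1 to 3 and 68.6%, 75.8% and 71.8% in WT 1 to 3. Bach2 encodes a repressor that holds back plasma cell fate and had a tile (chromosome 4, 32580001 to 32581000) at 48%, 65.6% and 52.7% in KO 1 to 3 and 32.5%, 45.7% and 39% in WT 1 to 3. The Bach2 genotypes were separated by 2.30 points. Rgs16 encodes a regulator of G protein signalling that tunes chemokine responses, and its tile was at 66.5% ± 2.40 in KO against 51.8% ± 1.13 in WT (SD, n = 3 each).

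Irf8, a transcription factor of B cell and myeloid development, had 3 KO-high tiles at or near it. The one 20.6 kb from the gene (chromosome 8, 120777001 to 120778000) stood at 44.2%, 45% and 42% in KO 1 to 3 and 11%, 20.2% and 18.6% in WT 1 to 3. The lowest KO library was 21.8 points above the highest WT library. The tile inside Irf8 (chromosome 8, 120748001 to 120749000) was at 89.3% ± 5.04 in KO against 75.7% ± 2.51 in WT (SD, n = 3 each), with 64 to 106 reads per library, and the one 50.3 kb away was at 69.5% ± 4.13 in KO against 56.9% ± 2.08 in WT (SD, n = 3 each).

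Of 31 haematopoietic transcription factor and corepressor genes with a tested tile, 4 held a KO-high tile: Runx2, Cbfa2t3, Ets1 and Trib1. Trib1 encodes a pseudokinase that directs protein degradation, and its tile (chromosome 15, 59652001 to 59653000) was at 43.3%, 49.2% and 46.3% in KO 1 to 3 and 12.2%, 21.4% and 18.1% in WT 1 to 3. Ets1 encodes a factor that restrains plasma cell differentiation, and its tile (chromosome 9, 32699001 to 32700000) was at 45.8%, 59.2% and 61.8% in KO 1 to 3 and 39.8%, 36% and 42.5% in WT 1 to 3. When each of the 3 Ets1 cytosines counted equally, the difference was 6.16 points in place of 16.1. Runx2 encodes a RUNX family factor, and its tile was at 73.9% ± 6.51 in KO against 61% ± 4.95 in WT (SD, n = 3 each), with the genotypes 0.317 points apart. Ebf1, a founding factor of the B lineage, was the single gene of 14 on the B cell identity list. The Ebf1 tile (chromosome 11, 44887001 to 44888000) was at 87.9%, 84.2% and 87.9% in KO 1 to 3 and 55.4%, 71.6% and 56.6% in WT 1 to 3. Foxp1, which keeps follicular B cells at rest, had a tile (chromosome 6, 99440001 to 99441000) at 70.3%, 67.7% and 62.7% in KO 1 to 3 and 37.8%, 51.1% and 52.5% in WT 1 to 3, and with Bach2 it made up 2 of 16 genes of the naive B cell list.

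Regulators of actin and integrins had 4 of 25 genes with a KO-high tile: Wipf1, Wasf2, Rasgrp2 and Tln1. Rasgrp2 encodes an exchange factor that activates Rap1 and integrins, and its tile (chromosome 19, 6408001 to 6409000) was at 73.3%, 74.9% and 71.3% in KO 1 to 3 and 49.7%, 61.6% and 58.1% in WT 1 to 3. Wasf2 encodes a WAVE complex subunit that drives actin branching, and Tln1 encodes talin, which links integrins to actin. The Wasf2 tile was at 70.3% ± 4.02 in KO against 56.3% ± 3.23 in WT (SD, n = 3 each). The Tln1 tile was at 53.4% ± 12.1 in KO against 38.9% ± 1.14 in WT (SD, n = 3 each), where KO 2 was well above KO 1 and KO 3. Without KO 2 the Tln1 difference was 7.61 points in place of 14.5.

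Other lists had 1 gene each or none. Among B cell receptor signalling genes, 1 of 24 held a KO-high tile, Vav2, a guanine nucleotide exchange factor, at 39.8%, 30.8% and 32.1% in KO 1 to 3 and 9.09%, 27.5% and 15.8% in WT 1 to 3. Of 14 antigen presentation genes it was H2-Oa, which encodes a chain of the H2-O molecule that limits peptide loading in B cells. The H2-Oa tile (chromosome 17, 34094001 to 34095000) had 16 cytosines, all higher in KO, and was at 37.5%, 43.6% and 35.6% in KO 1 to 3 and 13.8%, 26.3% and 22.2% in WT 1 to 3. Among 20 NF-kB and Toll-like receptor genes it was Nod2, a sensor of bacterial cell walls. The Nod2 tile (chromosome 8, 88664001 to 88665000) had 29 cytosines over 731 bases, 26 of them higher in KO, and was at 78.6%, 83.1% and 81.4% in KO 1 to 3 and 55%, 70.2% and 69.2% in WT 1 to 3. Tgfbr2, a TGF-beta receptor chain, was the 1 of 19 cytokine genes, at 25.5%, 35.9% and 29.1% in KO 1 to 3 and 2.75%, 24.2% and 18% in WT 1 to 3. WT 1 was far below WT 2 and WT 3 at Tgfbr2, and the genotypes were 1.25 points apart. Without WT 1 the Tgfbr2 difference was 9.07 points in place of 15.2. Gnas, an imprinted locus of the stimulatory G protein, was the 1 of 22 imprinted genes and had 2 tiles, at 54.9% ± 7.06 in KO against 34.5% ± 6.95 in WT (SD, n = 3 each) and 54.1% ± 14.1 in KO against 33.9% ± 6.90 in WT (SD, n = 3 each). Without KO 1 the difference of the latter was 12.9 points in place of 20.2. Creb3l2 was the 1 of 14 plasma cell genes. The DNA methylation machinery (18 genes with a tested tile) and the T cell (14), myeloid (9), NK (4) and erythroid (6) marker lists had none.

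Several KO-high tiles occurred in 1 gene only rarely. A KO-high tile lay within the span of 386 genes, and 23 genes held 2 or more. Mtss1, which encodes a membrane-bending actin regulator, held 4 among 29 tested tiles. The one with the largest difference (chromosome 15, 59006001 to 59007000) was at 81.4%, 71.6% and 74.8% in KO 1 to 3 and 40.9%, 59.4% and 61.3% in WT 1 to 3. The other Mtss1 tiles differed by 19.2, 18.3 and 12.4 points. Pitpnm2, a phosphatidylinositol transfer protein gene, held 3 among 33, with differences of 16.9, 13.7 and 12.5 points. Its tile at chromosome 5, 124219001 to 124220000 was at 31.4%, 25.6% and 23.9% in KO 1 to 3 and 13.6%, 10.1% and 15.9% in WT 1 to 3.

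Most KO-high tiles had no other KO-high tile within 10 kb. An adjacent tile was tested for only 206 of the 692 (29.8%), against 38.4% of all tested tiles. Most KO-high tiles thus could not show an adjacent pair. With starts no more than 10 kb apart counting as a cluster, 654 tiles were single and 38 formed 19 pairs, 8 of them adjacent tiles, with no cluster of 3. At 100 kb, a distance chosen after the values were seen, 67 clusters held 153 tiles. The largest of these had 5 tiles each. The cluster between Gm30733 and Prex1, a Rac exchange factor gene of leukocytes, spanned 179 kb of chromosome 2 (166406001 to 166585000) with 23 tested tiles. Its differences ran from 15.9 to 27.9 points, and 12 of its 18 other tested tiles were higher in KO in the mean, against 59.5% of all tested tiles. The Prex1 tile inside the gene was at 95.7%, 83.7% and 84% in KO 1 to 3 and 36.7%, 66.9% and 76.3% in WT 1 to 3, with WT 1 far below the other WT libraries. Without WT 1 its difference was 16.2 points in place of 27.9. The tile 15.4 kb from Prex1 was at 93.1%, 87.4% and 79.1% in KO 1 to 3 and 57.8%, 65.1% and 56.6% in WT 1 to 3. The cluster at Katnal1, a microtubule-severing enzyme gene, and Hmgb1, a chromatin protein gene, spanned 225 kb of chromosome 5 (148813001 to 149038000) with 39 tested tiles. Its strongest tile (chromosome 5, 148880001 to 148881000) was at 63.5%, 68.2% and 63.4% in KO 1 to 3 and 38.1%, 43.5% and 47.7% in WT 1 to 3, and 17 of its 34 other tested tiles were higher in KO.

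Tiles beside a KO-high tile that were not KO-high themselves had a small median difference. The 8 pairs of adjacent KO-high tiles were set aside here, while the values for all tested tiles include KO-high tiles. Because neighbours that met the rule were removed, a small median is partly fixed in advance. The 212 remaining tested tiles directly next to a KO-high tile had a median difference of 0.442 points, against 0.171 for all tested tiles. Of these, 30 (14.2%) had all KO libraries above all WT libraries, against 8.35% of all tested tiles, and 6 (2.83%) the reverse, against 3.37%. Among neighbours at 10 to 90%, the median was 2.69 points at a distance of 1 tile and 2.93 at 10 tiles, against 1.15 for all tiles at that level. The medians did not fall steadily over these distances. Where an adjacent tile was tested, 39 of 206 KO-high tiles (18.9%) bordered a tile below 10% and 88 (42.7%) a tile at 90% or more. For other tiles at 10 to 90% these shares were 30.9% and 31.4%.

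**Figure D4:**
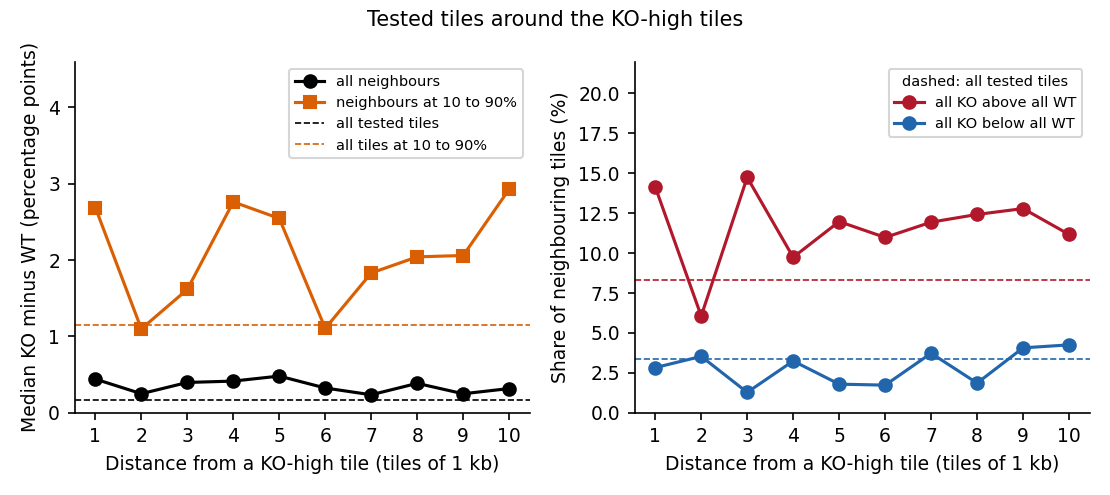
Tested tiles at 1 to 10 tiles (1 kb each) from a KO-high tile, not KO-high themselves. Left, the median KO minus WT difference in percentage points for all neighbours and for those at 10 to 90%. Right, the percent of neighbours with all KO above all WT or all below. Dashed lines show the same over all tested tiles. At distance 1 the median is 0.442 points and 14.2% of neighbours have all KO above all WT.

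In position, 365 KO-high tiles (52.7%) lay in gene interiors, 49 (7.08%) at gene ends and 278 (40.2%) outside genes. Other tiles at 10 to 90% were at 44.7%, 11.4% and 44.0%, and all tested tiles at 44.1%, 21.6% and 34.3%. A listed start site lay within 1 kb of 23 of 674 KO-high tiles with a distance (3.41%). The share was 6.57% of other tiles at 10 to 90% and 16.7% of all tested tiles. Distances rest on RefSeq's promoter table, which holds 17492 of 21887 protein-coding genes and none on chromosome 18. The nearest listed start can thus belong to another gene. For the Trib1 tile, inside Trib1, it was that of 4933412E24Rik, 363758 bases away. The median number of measured cytosines per KO-high tile was 4, and 225 tiles had exactly 3. Over the 20 chromosomes with a KO-high tile, their share of tested tiles ran from 0.361% on chromosome 3 to 0.872% on chromosome 17. Chromosome Y (132 tested tiles) and the mitochondrial genome (3) had 0.

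**Figure D5:**
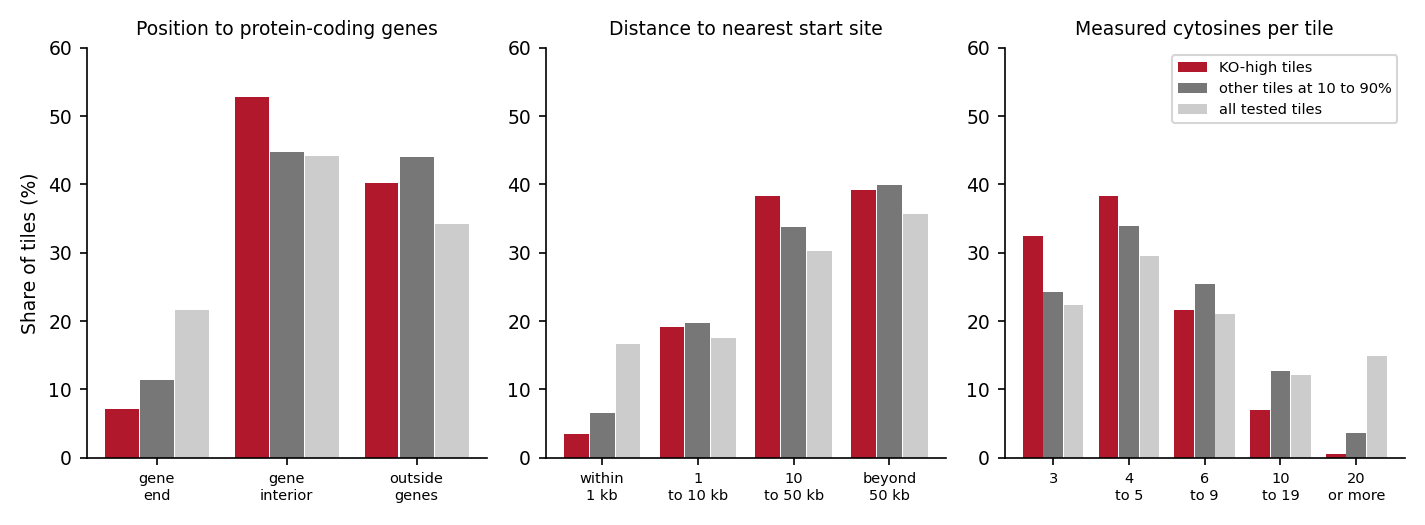
Share (%) of KO-high tiles, other tiles at 10 to 90% and all tested tiles by position relative to protein-coding genes, by distance to the nearest listed start site and by number of measured cytosines. KO-high tiles lie at gene ends in 7.08% and in gene interiors in 52.7%.

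Within the tiles, cytosines mostly went the same way, as the choice of tiles favours. Of 3635 cytosines in KO-high tiles, 3381 (93.0%) were higher in KO in the mean, and in 509 tiles every cytosine was. All KO libraries were above all WT libraries at 1683 of them (46.3%). Over all tested tiles, which were not matched in level, 38.0% of cytosines were higher in KO, with equal values counted as not higher. Cytosines of 1 tile often share reads and are not independent. Both strands were measured in 634 tiles, and 590 of these were higher in KO on both. In 336 of the 634 the difference was 10 points or more on both strands. In the D2hgdh tile, at the gene of the enzyme that breaks down D-2-hydroxyglutarate, cytosines did not all go the same way. There the 4 cytosines differed by -4.13 to 65.8 points, and the last, at position 93845616 of chromosome 1, stood at 88.6%, 78.3% and 76.7% in KO and 14.3%, 22.7% and 9.09% in WT.

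Cytosines of KO-high tiles that the rule did not use, because they lacked 10 reads in some library, showed a smaller difference. Of 282 such cytosines with a value in both genotypes, in 128 tiles, 177 (62.8%) were higher in KO, with a median of 4.06 points. In all tested tiles the same kind of cytosine was higher in KO in 28.0% of cases, with a median of 0. Those tiles were not matched in level, with 24.3% below 10% in WT and 47.8% at 90% or more. A cytosine equal in both genotypes counted as not higher. Of all tested tiles at 10 to 90%, 63.0% were higher in KO in the mean. The left-out cytosines come from the same libraries, so no test was made.

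Read coverage entered the rule as the minimum of 10 reads and as the weight of each cytosine, but not as a contrast between genotypes. It was tested per tile with edgeR's quasi-likelihood test and Benjamini-Hochberg adjustment over all tested tiles. Coverage differed in 465 of 108943 tiles (0.427%), 459 higher (0.421%) and 6 lower (0.00551%) in KO. Among the 692 KO-high tiles 3 were called, all higher in KO, close to the background share. These were the tiles in D2hgdh and Cdk6 and one 67.2 kb from Dusp4. The D2hgdh tile had 281, 330 and 357 reads in KO 1 to 3 and 56, 83 and 89 in WT 1 to 3, with a log2 fold change of 2.06 and an adjusted p of 0.0188 by edgeR. Cdk6, a cell cycle kinase gene, had a log2 fold change in coverage of 1.16 (adjusted p = 0.0307, edgeR). Its methylation difference was 14.9 points, and 8.54 without WT 1. For the tile near Dusp4, a MAP kinase phosphatase gene, it was 1.27 (adjusted p = 0.0354, edgeR). At the Yeats4 tile it was -0.78 (adjusted p = 0.0512, edgeR). Without KO 1, KO 2 or WT 1 edgeR called 0 KO-high tiles, and at an unadjusted p under 0.05 it then counted 68, 57 and 61 higher and 16, 14 and 22 lower. As shares these were 9.83%, 8.24% and 8.82% higher, against 10.2%, 7.81% and 8.20% of all tested tiles, and 2.31%, 2.02% and 3.18% lower, against 3.26%, 2.84% and 4.69%. Without KO 3, WT 2 or WT 3 it called 13, 8 and 24 (1.88%, 1.16% and 3.47%), against 1.58%, 1.03% and 2.87% of all tested tiles. DESeq2 on all 6 libraries called 13 (1.88%), against 1.48% of all. Coverage was higher in KO in 59.2% of KO-high tiles, with a median log2 fold change of 0.089, and in 57.6% of other tiles at 10 to 90%, with a median of 0.083. Its part in the methylation difference was not tested.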

How the data were processed

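Reads were aligned with Bismark to GRCm38, per the submitters' processing notes (version not given in the sources used here). The deposited tables give, per the file headers, each CpG cytosine's coverage, a raw read count of at least 10, and the percent of reads with C and with T. Reads with C and T were recovered from percent and coverage, and 100% were whole numbers, allowing for the percent's last decimal. Cytosines common to all 6 libraries (1457048 of 1799219) were summed in 1 kb tiles. Totals were 168455105 to 207065050 reads per library, and intervals from such PCR reads would cover counting error only. Because the tiles were chosen by the methylation contrast, only coverage was tested, with edgeR 4.0.16 (TMM), in 3 against 3 libraries; DESeq2 1.42.0 was an alternative. The p-values reflect only how these libraries vary, which may be technical. The rule and the edgeR test were checked on simulated data. For the rule, simulated levels varied between libraries of a genotype only by read counting. That check cannot show how the rule performs on these data. Positions came from RefSeq gene spans of GRCm38.p6, which give no exons, and start sites from its promoter table (17492 of 21887 protein-coding genes).

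Tiles named are the 12 with the largest difference, the 6 largest at gene ends, up to 3 per gene list, those in genes with 3 or more, and the 3 nearest the threshold on each side. The Irf8 tiles beyond the gene, Rgs16, Runx2, Wasf2 and Tln1, the clusters at 100 kb, the promoter windows, and the D2hgdh, Cdk6 and Dusp4 tiles were named after their values were seen. The members and lists were chosen with earlier results of these data known. Alternatives were the coverage minimum and cap, weighting, cytosines per tile, tile position, coverage normalization, tool, filter and block, and leaving out each library. The result of 1 gene list is not reported here.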

Additional observations from a re-analysis of the deposited data

How the results depend on the processing

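The count of 692 KO-high tiles was 309 with at least 5 cytosines per tile and 393 with at least 200 reads in every library (chosen after seeing the data), and 634 to 1131 with 1 library left out. It was 575 with 20 reads per cytosine, 629 with cytosines weighted equally and 716 with tiles shifted by 500 bases. With equal weights, 506 of the 692 tiles met the rule again and 2 were at or below 0. The 19 clusters became 6 with 5 cytosines, 11 with 200 reads, 67 at 100 kb (chosen after seeing the data), and 12 to 40 with 1 library left out. The share at gene ends was 10.3% with shifted tiles. Of 368 values of named tiles under the alternatives, 367 lay within 1 SD between libraries of the reported value, and none reversed. Where 1 library was left out, both outcomes were fixed in advance. Dropping 1 of 3 libraries cannot move a difference by that SD, and separated genotypes cannot reverse. The coverage cap left the values of the named tiles unchanged. The Ets1 tile was at 6.16 points with equal weights. However, 26 of the 368 values, in 11 of the 42 named tiles, were below 12 points. Among them were Tgfbr2 (9.07) and Nod2 (11.3) without WT 1 and Bach2 (11.2) without KO 2. With 20 reads per cytosine 10 named tiles had no value, including those near Cryaa and Ifitm1 and at Mettl7b and Prtg. KO-high tiles called for coverage numbered 3 by edgeR, 13 by DESeq2, 4 with DESeq2 size factors, 2 with at least 100 reads per library and 0 to 24 with 1 library left out. With the replicate number as a block there were 25 (3.61%), against 2.87% of all tested tiles; the share called of all tiles was 0.427% by edgeR, 1.48% by DESeq2, 0.386% with DESeq2 size factors, 0.190% with at least 100 reads and 0.00275 to 2.87% with 1 library left out. The same-numbered libraries' deviations correlated at 0.0481, -0.0293 and -0.0074, and those of other KO and WT pairs at -0.0391 to 0.0533. Not every library correlated best with its own number. These correlations cannot decide whether same-numbered libraries share a batch. The cause of these shifts was not tested. Tiles with few reads limit the precision: 20 of the 692 averaged under 100 reads per library.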

Other observations

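Further KO-high tiles at genes outside the lists, or more than 1 kb from a list gene, were picked after their values were seen and are given as values only. Cytip, a regulator of integrin adhesion, had a tile at 32.4%, 29.6% and 30.2% in KO 1 to 3 and 4.11%, 9.35% and 19.4% in WT 1 to 3. Crtc3, a coactivator of CREB, held 2 tiles among 9 tested, differing by 30.4 and 17.1 points, the latter by 10.4 without KO 3. Ncf1, a subunit of the phagocyte NADPH oxidase, had a tile of 14 cytosines at 83.3% ± 0.654 in KO and 65.7% ± 8.85 in WT (SD, n = 3 each). A tile of 14 cytosines 27.2 kb from Bach1, a haem-sensing repressor gene, was at 38.3%, 42.1% and 47.5% in KO and 21.2%, 18.4% and 20.9% in WT. Tnfsf4, the gene of the OX40 ligand, had a tile at 27.8% ± 4.66 in KO and 13.9% ± 8.93 in WT (SD, n = 3 each).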
